A study of Mus musculus with 9 samples.

Results

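Microglia sorted from mouse brains 30 days after a traumatic brain injury were set against microglia sorted 7 days after it, the subacute against the acute stage of the response. There were 6 libraries, 3 at day 30 and 3 at day 7, each from 1 mouse and carrying replicate numbers 2, 3 and 4. A gene was kept where at least 3 of these 6 libraries reached 1 CPM (reads of a gene per 1000000 reads counted to genes in that library). Of 49671 genes listed, 13977 were kept, and the table also holds 3 libraries from day 90, which entered the test as a source of information on the spread between mice. All groups were male C57BL/6 mice carrying CD45.2, given bone marrow from CD45.1 donors (B6.SJL) at 8 weeks of age after 1000 cGy of irradiation with the head shielded and busulfan at 30 mg/kg. They were injured at 16 weeks by controlled cortical impact, in which a piston of 3 mm strikes the exposed cortex at 2.5 m/s to a depth of 2 mm. CD45.2 cells were sorted, which keeps host microglia and leaves out blood-derived cells of the CD45.1 donor, but not host cells that outlived the ablation. No sham or uninjured library was analysed here, so each value describes day 30 relative to day 7 and not relative to the uninjured brain.

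Microglia are the resident macrophages of the brain. In the uninjured brain they express a set of surface receptors and enzymes known as the homeostatic signature, among them the purinergic receptor P2ry12 and the fractalkine receptor Cx3cr1. After damage they multiply, take up debris and lipid, and switch on a phagocytic programme often called disease-associated, with Apoe, Gpnmb, Spp1 and lysosomal proteases. They also respond to type I interferon, which switches on antiviral effector genes.

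The libraries held between 11150956 and 12965926 reads in genes at day 30 and between 7210985 and 11312874 at day 7, so that 3 reads corresponded to between 0.231 and 0.416 CPM. All 30 homeostatic microglia markers passed the filter, and the leukocyte marker Ptprc (CD45) was at 365, 363 and 345 CPM at day 30, against 301, 337 and 374 CPM at day 7. Pearson correlations of log2(CPM + 1) were 0.878 to 0.906 within day 30, 0.854 to 0.867 within day 7 and 0.851 to 0.885 between the times, so that the ranges within and between times overlapped. The first principal component carried 24.5% of the variance and put the day 30 libraries at 75.4, 9.06 and 20.1 and the day 7 libraries at -59.7, -31.2 and -13.6. The entry with the most reads in all 6 libraries, Gm42418, overlaps ribosomal RNA sequence and took 7.43%, 7.21% and 5.91% of reads at day 30, against 8.96%, 11.4% and 8.41% at day 7. Its part in the other differences was tested only by leaving it out of the library totals, which left the number of genes past the threshold at 0.

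No gene passed the test. With limma on log2(CPM + 1) and 1 mean per time point over all 9 libraries, 0 of 13977 genes were higher and 0 lower at day 30 than at day 7 at a Benjamini-Hochberg adjusted p under 0.05, 0.0% in each direction, and the smallest adjusted p was 0.110. With no difference, 699 genes over both directions together would be expected at an unadjusted p under 0.05. At that threshold 518 genes were higher (3.71%) and 392 lower (2.8%). With library totals that leave out Gm42418 these counts were 446 higher and 453 lower, and without day 30 replicate 4 they were 334 and 345, so the larger number of higher genes was not kept. edgeR's quasi-likelihood test on reads recovered from the CPM also called 0 genes in each direction, where 342 genes were higher and 292 lower before adjustment at the same threshold of 0.05. The 3 day 30 libraries lay wholly above the 3 day 7 libraries for 980 genes (7.01%) and wholly below them for 834 genes (5.97%), and 7430 genes (53.2%) had a fitted change above 0 and 6547 (46.8%) below it. The median log2 change over all genes kept was 0.04. The median standard error of a gene's log2 change was 0.88 for genes with a mean of 1 to 10 CPM, 0.45 for 10 to 100 CPM and 0.24 at 100 CPM or more. The filter also keeps genes seen at 1 of the times, with 104 genes that reached 1 CPM in the 3 day 30 libraries and in no day 7 library and 49 the other way round, so counts over the members of a list describe these libraries and test nothing. Below, a gene is called higher or lower for its measured value alone, and the percentages above are the background for each count.

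When the day 30 and day 7 libraries were fitted alone, limma called 12 genes, with 3 higher (0.0215%) and 9 lower (0.0644%), at adjusted p between 0.0421 and 0.0488. The higher genes were Naip2, Hpcal4 and Syt1, and the lower genes were Lgals3bp, Gpnmb, Lcn2, Bst2, Slfn5, Plin2, Cd5l, Gpx3 and Ifitm3. Their adjusted p was 0.110 to 0.436 with the day 90 libraries in the fit. Leaving out day 90 replicate 1 called Naip2 and Lgals3bp, leaving out day 7 replicate 4 called Naip2, and leaving out any other library called no gene. DESeq2 on the recovered reads called 17 genes higher (0.122%) and 10 lower (0.0715%), and 8 of the 17 had 0 reads in the day 7 libraries. It shared 7 genes with the 12.

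**Figure D1:**
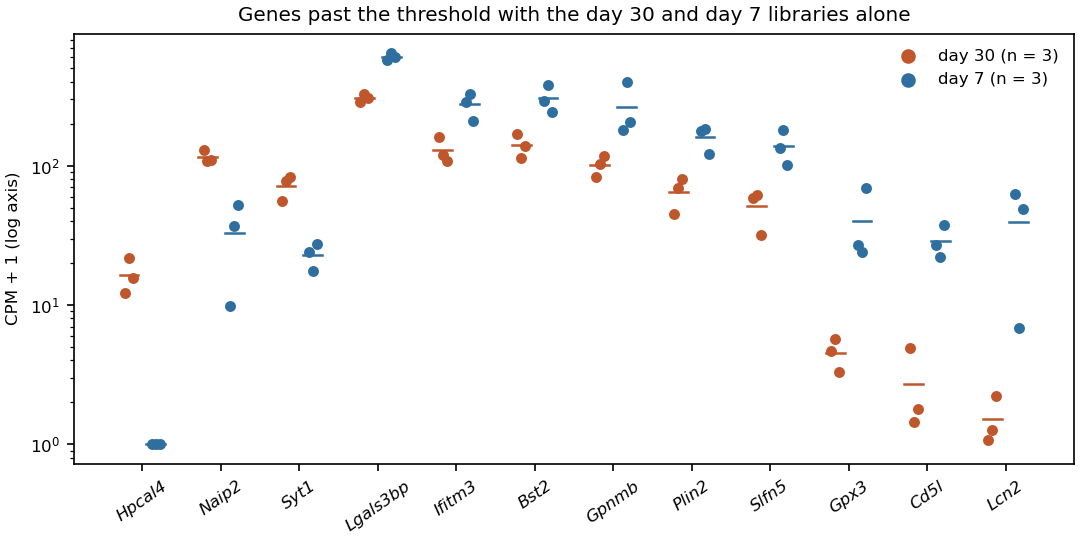
CPM + 1 (log axis) in each library for the 12 genes called with the day 30 and day 7 libraries alone, with day 30 (n = 3) left of day 7 (n = 3); points are libraries and bars are means. The points of the 2 times do not overlap for any of these genes, and Hpcal4 had 0 reads in every day 7 library.

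**Figure D2:**
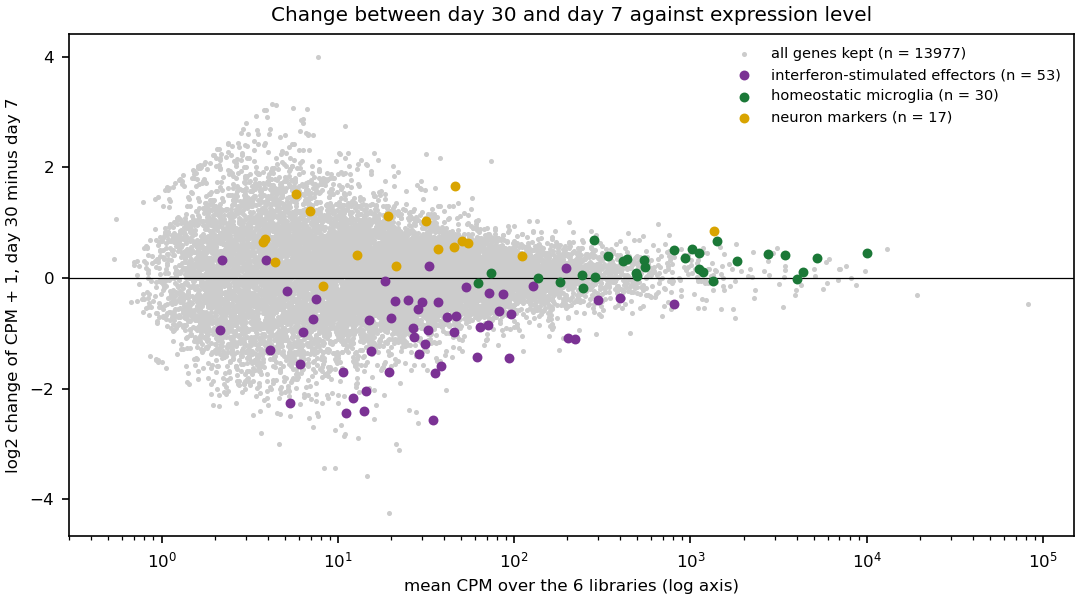
Log2 change of CPM + 1 (day 30 minus day 7) against mean CPM over the 6 libraries (log axis) for 13977 genes, with the interferon-stimulated effectors (53), homeostatic microglia markers (30) and neuron markers (17) in colour. The spread narrows as the level rises, the interferon effectors lie mostly below 0 and the homeostatic and neuron markers mostly above it.

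The interferon-stimulated effectors, the antiviral proteins that interferon switches on, were lower at day 30 as a group. Of 56 listed, 53 passed the filter on low values, 49 of these had a log2 change below 0 and 4 above it, and the median was -0.85, beside 0.04 over all genes kept. The day 30 libraries lay wholly below the day 7 libraries for 20 of them (37.7%, beside 5.97% of all genes kept) and wholly above for 0. None passed the adjusted threshold over the 9 libraries. The list summed to 3126, 2744 and 2910.4 CPM at day 30 and 4321, 5015 and 4053 CPM at day 7, so the groups did not overlap, and the day 90 libraries held 2626 to 3017 CPM.

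Promoter sequences are shown for 3 effectors that are described next and carry GAAA, any 2 bases and again GAAA, the core of the interferon-stimulated response element. Each runs over the 250 bases before a RefSeq start on its own strand (GRCm38.p6), and capitals mark the matches. Where several starts were listed, the first with a match is shown, so the start was chosen for the motif. Bst2 (minus strand, chr8:71537473-71537722) holds 2 overlapping matches, Slfn5 (plus strand, chr11:82951852-82952101) holds 1, and Isg15 (minus strand, chr4:156200819-156201068) holds 3 that overlap. The Slfn5 window lies inside the gene as placed below (82951349 to 82964840), before a start further into the gene. Isg15, an ubiquitin-like antiviral modifier, was added to the set after its values were seen. All 3 have separate day 30 and day 7 libraries, and they do not stand for all effectors with the motif. Rsad2 (viperin), also named after its values were seen, holds 1 match and overlapped between the times, at 64.6, 27.5 and 15.4 CPM at day 30 and 120.1, 84.5 and 57.5 CPM at day 7 (-1.43 ± 0.45).
Bst2: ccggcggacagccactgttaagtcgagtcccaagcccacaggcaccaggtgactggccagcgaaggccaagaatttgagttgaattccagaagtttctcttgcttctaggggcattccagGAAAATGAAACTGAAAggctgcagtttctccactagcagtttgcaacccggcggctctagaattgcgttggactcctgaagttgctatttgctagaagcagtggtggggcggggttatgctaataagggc
Slfn5: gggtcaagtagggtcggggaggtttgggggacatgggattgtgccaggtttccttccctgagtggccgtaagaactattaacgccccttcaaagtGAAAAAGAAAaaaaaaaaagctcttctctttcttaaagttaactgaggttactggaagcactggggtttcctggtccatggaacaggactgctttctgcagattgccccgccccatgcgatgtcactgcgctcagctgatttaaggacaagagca
Isg15: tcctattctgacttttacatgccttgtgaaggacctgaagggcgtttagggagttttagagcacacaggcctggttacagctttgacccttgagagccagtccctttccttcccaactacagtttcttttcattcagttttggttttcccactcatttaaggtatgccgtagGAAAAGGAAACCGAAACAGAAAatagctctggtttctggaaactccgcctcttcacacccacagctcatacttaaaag

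Promoters were searched on both strands from 250 bases before to 50 after the start. A match at any listed start of a gene counted. This motif was found in 21 of 39 interferon effectors with a listed promoter (53.8%). Among genes kept it was found in 382 of 9820 (3.89%), and among all genes with a promoter in 1079 of 27025 (3.99%). Of the homeostatic markers 0 of 19 held it, and of the disease-associated genes 1 of 27 (3.7%). The 21 effectors with a match had a median log2 change of -0.98, and 19 of them were below 0. The 18 without a match had a median of -0.73, and 17 were below 0, so the lower values were found on both sides of this split.

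Bst2 (tetherin, which holds budding virus at the cell surface; chromosome 8, 71534255 to 71537456 on mm10) was at 168, 113 and 138 CPM at day 30, against 292, 376 and 241 CPM at day 7, a log2 change of -1.11 ± 0.25 (SE). The ranges lay well apart, with the highest day 30 library below the lowest day 7 library. Slfn5, a member of the interferon-induced Schlafen family (chromosome 11, 82951349 to 82964840), was at 57.8, 61.1 and 31.0 CPM at day 30, against 132, 178 and 100.0 CPM at day 7 (-1.46 ± 0.37). Isg15 was at 14.2, 21.0 and 18.9 CPM at day 30 and 37.2, 86.7 and 52.8 CPM at day 7 (-1.59 ± 0.43). For Bst2, Slfn5 and Isg15 the 3 day 30 libraries were below the 3 day 7 libraries.

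Ifitm3, which blocks entry of enveloped virus (chromosome 7, 141009586 to 141010770), was at 161, 119 and 108 CPM at day 30, against 288, 328 and 209 CPM at day 7 (-1.08 ± 0.28). Its day 90 libraries held 278, 96.8 and 129.9 CPM, and the first of them, day 90 replicate 1, lay within the day 7 range. Rtp4, an interferon-induced receptor transporter, had 1.39, 15.6 and 21.3 CPM at day 30, against 54.6, 68.9 and 47.3 CPM at day 7 (-2.58 ± 0.67). The day 30 values of Rtp4 were spread over a wide range, with replicate 2 the lowest, but none reached the day 7 values. Ly6e, a surface protein that limits coronavirus entry, was at 773, 539.5 and 688 CPM at day 30 and 889, 1184 and 738 CPM at day 7 (-0.48 ± 0.20), and here the groups overlapped.

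**Figure D3:**
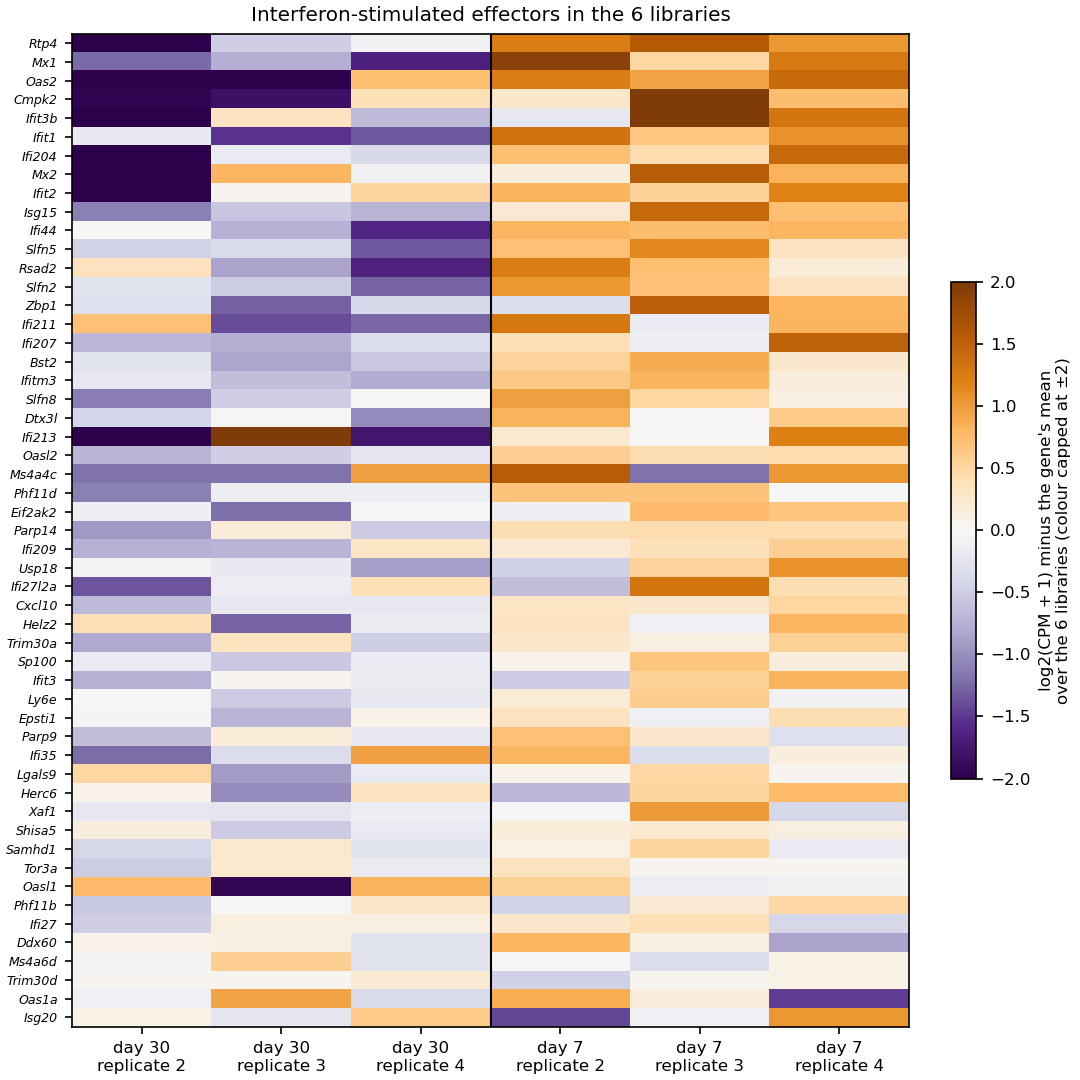
Log2(CPM + 1) of the 53 interferon-stimulated effectors kept, minus each gene's mean over the 6 libraries (colour, capped at 2 on either side), with 3 day 30 libraries left of 3 day 7 libraries and genes ordered by log2 change. Most rows are purple (low) at day 30 and orange (high) at day 7, and the last rows, including 4 genes with a change above 0, show no such split.

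The machinery upstream of these effectors did not share one direction. Of 31 sensors, receptors and transcription factors of the interferon pathway, all 31 kept, 21 were higher and 10 lower, with a median of 0.07 that was 0.01 to 0.19 with 1 library left out. Irf7, itself interferon-induced and an amplifier of type I interferon production, was at 17.7, 24.8 and 6.83 CPM at day 30 and 36.8, 80.2 and 81.7 CPM at day 7 (-2.02 ± 0.51). It was lower in all 3 day 30 libraries. The receptor-associated kinase Jak1, by contrast, was at 307, 337 and 335 CPM at day 30 and 259.8, 205 and 282 CPM at day 7 (0.40 ± 0.20), with day 30 wholly above.

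The GTPases induced by interferon-gamma, which attack the vacuoles of intracellular pathogens, leaned the same way as the effectors. Of 17 listed, 11 were kept and 10 of these were lower, with a median of -0.54. Of the 11, 6 lay wholly below day 7 (54.5%, beside 5.97% of all genes kept). Ifi47 was at 6.40, 0.359 and 0.788 CPM at day 30, against 16.5, 20.1 and 13.6 CPM at day 7 (-2.74 ± 0.81). Iigp1 was at 0.463, 13.1 and 10.1 CPM at day 30 and 21.7, 48.5 and 15.3 CPM at day 7 (-2.11 ± 0.81). These levels were low, and Gbp4 had 0 reads in day 30 replicate 2. Among 22 genes of MHC class I presentation, all kept, 9 were higher and 13 lower, with 4 wholly below (18.2%, beside 5.97%) and 1 wholly above. Their median was -0.25, which was -0.38 to -0.12 with 1 library left out. The immunoproteasome subunit Psmb8 was at 50.7, 57.0 and 63.0 CPM at day 30 and 96.9, 92.6 and 77.3 CPM at day 7 (-0.63 ± 0.28). The light chain B2m was at 2159.6, 1825 and 1980.4 CPM at day 30 and 2234, 2353 and 3187 CPM at day 7 (-0.37 ± 0.20). Both were wholly lower at day 30, while the heavy chain H2-K1 overlapped between the times (-0.12 ± 0.20). Reads of class I genes may be shared between near-identical copies, so their values are uncertain.

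The homeostatic microglia markers were higher at day 30 as a group. All 30 listed were kept, 25 had a log2 change above 0 and 5 below it, and the median was 0.25. The day 30 libraries lay wholly above day 7 for 12 of them (40.0%, beside 7.01% of all genes kept) and wholly below for 0. Their sum was 50020.4, 51622 and 48605 CPM at day 30 and 41849, 37022 and 42874 CPM at day 7, with no overlap, a ratio of means of 1.23. The day 90 libraries held 39502, 48967 and 50611 CPM, and so spanned both ranges.

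The purinergic receptor P2ry13, which keeps microglial processes ramified, was at 1757, 1783 and 1665 CPM at day 30, against 1166, 985 and 1122 CPM at day 7 (0.67 ± 0.18). This was the member with the smallest p in limma (adjusted p = 0.436), and DESeq2 called it with an adjusted p of 0.00281. P2ry12, the receptor that guides processes to ATP released at injury, was at 1117, 1657 and 1101 CPM at day 30 and 1002, 767 and 1031 CPM at day 7 (0.45 ± 0.20). The fructose transporter Slc2a5 was at 316, 395 and 342 CPM at day 30 and 219.6, 207 and 221 CPM at day 7 (0.69 ± 0.20). In all 3 genes every day 30 library was above every day 7 library. Tmem119, a membrane protein used to tell microglia from other macrophages, was at 1167, 1304 and 1126 CPM at day 30 and 975, 751 and 796 CPM at day 7 (0.52 ± 0.19). Csf1r, the receptor for the survival factor CSF1, was at 2949, 3472 and 3059 CPM at day 30 and 2327, 2192 and 2511 CPM at day 7 (0.43 ± 0.21). Tmem119 and Csf1r again did not overlap between the times. The Golgi protein Golm1 (0.51) and the protease inhibitor Cst3 (0.46) were also wholly higher.

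Not every marker of the signature was apart. Cx3cr1 was at 6112, 5151 and 6330.0 CPM at day 30 and 4233, 3926 and 5573 CPM at day 7 (0.37 ± 0.23), and day 7 replicate 4 lay within the day 30 range. The 5 members below 0 reached no lower than -0.18.

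The disease-associated programme was lower at day 30 in most of its members. Of 35 genes listed, 33 were kept, 28 were below 0 and 5 above, and the median was -0.38. Of these 9 lay wholly below day 7 (27.3%, beside 5.97% of all genes kept) and 1, Trem2, wholly above (3.03%, beside 7.01%). Their sum overlapped between the times, with 17234, 21450.2 and 17469 CPM at day 30 and 24745, 20871 and 22866 CPM at day 7, and was 9465 to 15072 CPM at day 90.

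Lgals3bp, a secreted glycoprotein that binds galectin-3 and is also known as an interferon-responsive gene (chromosome 11, 118392751 to 118402092), was at 284, 326 and 304 CPM at day 30, against 575, 641 and 607 CPM at day 7. Its log2 change was -0.99 ± 0.19 with an adjusted p of 0.11, and across 25 alternative settings the change stayed between -1.09 and -0.95 with 6 of them past the threshold. Day 90 libraries held 185, 192 and 225 CPM. The replicates of each time were close together, with an SD of 20.6 CPM at day 30 and 33.0 CPM at day 7. Gpnmb, a glycoprotein of lipid-laden phagocytes (chromosome 6, 49036546 to 49070929), was at 81.6, 102 and 116 CPM at day 30, against 179, 398 and 206 CPM at day 7 (-1.30 ± 0.36). The growth factor Igf1 was at 25.5, 66.5 and 46.1 CPM at day 30 and 93.2, 76.5 and 112 CPM at day 7 (-1.10 ± 0.42). The receptor Cd72 was at 43.9, 38.0 and 56.9 CPM at day 30 and 84.2, 97.5 and 98.2 CPM at day 7 (-1.01 ± 0.39). Gpnmb, Igf1 and Cd72 were below day 7 in all 3 day 30 libraries.

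Other defining genes of the programme overlapped. Spp1, which encodes osteopontin, was at 72.9, 159 and 131 CPM at day 30 and 314, 150.2 and 311 CPM at day 7 (-1.08 ± 0.59), where day 7 replicate 3 was below day 30 replicate 3. Apoe, the lipid carrier, was at 3448, 3921 and 3201 CPM at day 30 and 4283, 5103 and 3701 CPM at day 7 (-0.30 ± 0.23). Lpl, lipoprotein lipase, was at 187, 326 and 223 CPM at day 30 and 434, 189 and 319 CPM at day 7 (-0.32 ± 0.27). The protease inhibitor Cst7 had a log2 change of -0.09 ± 0.30 and the adaptor Tyrobp of -0.03 ± 0.21. The lipid receptor Trem2, which signals through Tyrobp, was at 1314, 1342 and 1297 CPM at day 30 and 1205, 1230.3 and 1112 CPM at day 7 (0.16 ± 0.19), a small difference with no overlap. Members of the programme therefore did not share one size or direction of change.

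Lysosomal and phagocytic genes leaned lower, with 30 of 40 below 0, 10 above and a median of -0.19. Of the 40, 10 lay wholly below day 7 (25.0%, beside 5.97% of all genes kept) and 1 wholly above. The list sums overlapped, at 25788, 29260.5 and 25375 CPM at day 30 and 31369, 26618 and 31073 CPM at day 7. Axl, Cd63, Cd68, Ctsb, Ctsd, Ctsl and Ctsz are also on the disease-associated list, so the 2 lists are not separate. Progranulin (Grn), a lysosomal and secreted protein, was at 1520.1, 1204 and 1288 CPM at day 30 and 1863, 2659 and 2187 CPM at day 7 (-0.73 ± 0.20). Cathepsin D (Ctsd) was at 2663, 3006 and 2589 CPM at day 30 and 4545, 3659 and 3682 CPM at day 7 (-0.52 ± 0.20). The acid lipase Lipa, which frees cholesterol from taken-up lipid, was at 51.1, 53.4 and 68.6 CPM at day 30 and 150.1, 95.1 and 95.9 CPM at day 7 (-0.95 ± 0.32). The scavenger receptor Msr1 had a log2 change of -1.67 ± 0.60, and all 4 of these genes were wholly lower at day 30. Cathepsin S (Ctss), at 4572, 6225 and 5069 CPM at day 30 and 5286, 3476 and 5615 CPM at day 7, overlapped between the times (0.16 ± 0.22).

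Lipid handling genes were divided, with 9 of 19 above 0 and 10 below and a median of -0.27, which moved to 0.03 without day 30 replicate 4. Plin2, which coats lipid droplets (chromosome 4, 86648386 to 86670060), was at 44.3, 67.8 and 79.6 CPM at day 30, against 176, 183 and 120.2 CPM at day 7 (-1.32 ± 0.29). Cd5l, a secreted macrophage protein that binds lipids (chromosome 3, 87357881 to 87371073), was at 3.93, 0.448 and 0.788 CPM at day 30 and 25.9, 20.9 and 36.3 CPM at day 7 (-3.58 ± 0.84), and had 0 reads in all 3 day 90 libraries. The sterol exporter Abcg1 was at 61.2, 64.9 and 94.8 CPM at day 30 and 149, 106 and 120.2 CPM at day 7 (-0.77 ± 0.27). Plin2, Cd5l and Abcg1 were each lower in all 3 day 30 libraries. Markers of border-associated macrophages, some of which are also known from phagocytic microglia, had 6 of 15 kept higher and 9 lower. They summed to 1017, 1647 and 926 CPM at day 30 and 1863, 1245 and 1837 CPM at day 7. Lyz2, which is also on the disease-associated list, made up most of that sum. It was at 724, 1366 and 665 CPM at day 30 and 1463, 955 and 1465 CPM at day 7. The part of border-associated macrophages in the Cd5l values was not tested. Genes of cholesterol and fatty acid synthesis had a median of 0.27 (13 of 24 above 0), which was -0.07 without day 7 replicate 2, and among them Fasn, fatty acid synthase, was at 34.8, 30.0 and 38.5 CPM at day 30 and 20.2, 14.3 and 13.5 CPM at day 7 (1.07 ± 0.48).

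Of the remaining genes called with the 6 libraries alone, Gpx3, a secreted glutathione peroxidase (chromosome 11, 54902453 to 54910377), was at 3.70, 4.66 and 2.28 CPM at day 30 and 26.0, 23.02 and 68.7 CPM at day 7 (-3.01 ± 0.82). Lcn2, lipocalin 2, which binds iron siderophores and is made by neutrophils and by inflamed glia (chromosome 2, 32384633 to 32388252), was at 0.0771, 0.269 and 1.23 CPM at day 30, against 61.9, 5.82 and 47.9 CPM at day 7 (-4.25 ± 0.90). Day 30 libraries were near the level of a few reads, and day 7 replicate 3 was well below the other day 7 libraries. Lcn2 is itself on the neutrophil list, so the values of that list are not separate from its own. The list had 5 of 17 kept and 4 of these below 0. It summed to 92.6, 103 and 169 CPM at day 30 and 145, 359 and 206 CPM at day 7. Of the 145 CPM in day 7 replicate 2, Lcn2 gave 61.9. The neutrophil gene S100a8 was at 0.617, 3.23 and 20.2 CPM at day 30 and 5.90, 89.6 and 32.7 CPM at day 7 (-2.39 ± 1.06). Unlike Lcn2, S100a8 was highest in day 7 replicate 3, and the neutrophil sums overlapped between the times. The part of neutrophil RNA in the Lcn2 values was not tested, and in bulk samples a smaller number of cells of a type and less RNA per cell cannot be told apart.

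Naip2, an inflammasome sensor of bacterial secretion systems (chromosome 13, 100144063 to 100202092), was at 129, 107 and 109 CPM at day 30, against 8.85, 35.6 and 51.4 CPM at day 7 (2.12 ± 0.39, adjusted p = 0.11). Day 30 replicates were close together, while day 7 replicates were spread over a wide range with replicate 2 lowest. Day 90 libraries held 76.1, 121 and 97.8 CPM. Naip2 has close paralogs on the same chromosome, between which reads may have been shared or dropped, so its level is uncertain. Of other genes short of the threshold, the guanosine triphosphatase Rab6b was at 198, 181 and 164 CPM at day 30 and 72.7, 79.3 and 116 CPM at day 7 (1.04 ± 0.25). The actin regulator Limk1 was at 33.1, 49.95 and 54.4 CPM at day 30 and 8.95, 20.1 and 10.8 CPM at day 7 (1.76 ± 0.44). Pccb, a subunit of mitochondrial propionyl-CoA carboxylase, was at 77.7, 55.4 and 71.7 CPM at day 30 and 42.8, 24.3 and 16.2 CPM at day 7 (1.36 ± 0.36). Rab6b, Limk1 and Pccb were higher in all 3 day 30 libraries.

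Neuronal transcripts were higher at day 30. All 17 neuron markers were kept, 16 were above 0 and 1 below, 7 lay wholly above day 7 (41.2%, beside 7.01%), and the median was 0.66, or 0.39 without day 30 replicate 4. They summed to 1645, 2206 and 3249 CPM at day 30 and 1185, 1325 and 1378 CPM at day 7, with no overlap and a ratio of means of 1.83. Meg3, a long non-coding RNA abundant in neurons, made up most of that sum, at 1184, 1663 and 2528 CPM at day 30 and 856, 969 and 1009.6 CPM at day 7 (0.86 ± 0.24). The synaptic vesicle calcium sensor Syt1 (chromosome 10, 108497650 to 109010982) was at 55.0, 76.4 and 81.5 CPM at day 30, against 22.9, 16.5 and 26.4 CPM at day 7 (1.65 ± 0.41). The microtubule protein Map2 was at 43.3, 32.6 and 52.5 CPM at day 30 and 25.5, 14.6 and 21.3 CPM at day 7 (1.04 ± 0.41). Meg3, Syt1 and Map2 were all wholly higher, and day 30 replicate 4 had the highest value of each.

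Hpcal4, a calcium-binding protein known from neurons (chromosome 4, 123183227 to 123194701), was at 11.1, 20.8 and 14.5 CPM at day 30 and had 0 reads in the 3 day 7 libraries, so that it was at least 144-fold higher against a floor of 3 reads over the day 7 group. The reticulon Rtn1, also known from neurons, was at 167, 187 and 135 CPM at day 30 and 67.0, 78.2 and 92.4 CPM at day 7 (1.03 ± 0.26). These genes lay in the direction of the neuron markers, and the part of neuronal RNA in their values and in those of Rab6b and Limk1 was not tested.

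Markers of astrocytes and oligodendrocytes did not separate the times. Astrocyte markers summed to 681, 657 and 711 CPM at day 30 and 846, 645 and 669 CPM at day 7. Oligodendrocyte markers summed to 342, 427 and 418 CPM at day 30 and 332, 403 and 366 CPM at day 7, and both lists overlapped between the times. All 19 endothelial and pericyte markers were kept and all 19 were below 0, with 3 wholly below (15.8%, beside 5.97%) and a median of -0.33. Leaving out day 30 replicate 2 gave a median of -0.61, and leaving out day 7 replicate 4 gave -0.70. Their sum was 2944, 2511 and 2121 CPM at day 30 and 3661, 4328 and 2681 CPM at day 7, where day 7 replicate 4 lay within the day 30 range. The tight junction protein Cldn5 was at 244, 142 and 157 CPM at day 30 and 261, 681 and 258 CPM at day 7 (-1.02 ± 0.32). The pericyte gene Rgs5 was at 135, 90.9 and 143 CPM at day 30 and 169.7, 282 and 149 CPM at day 7 (-0.67 ± 0.30). Both were wholly lower at day 30. Endothelial cells are known to express Bst2 and Ifitm3, and their part in the interferon values was not tested.

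Among blood-derived cells, monocyte markers had 11 of 16 kept, 2 above 0 and 9 below, with a median of -0.57 that was -1.02 to -0.35 with 1 library left out. Their sums overlapped, with 1246, 1105 and 1370.4 CPM at day 30 and 1119, 1326 and 1834 CPM at day 7. Fn1, fibronectin, was at 135, 109 and 93.7 CPM at day 30 and 206, 202 and 207 CPM at day 7 (-0.88 ± 0.25). The chemokine receptor Ccr1 was at 0.0771, 3.77 and 0.526 CPM at day 30 and 13.1, 6.24 and 4.86 CPM at day 7 (-2.09 ± 0.89). Fn1 and Ccr1 did not overlap between the times. T and NK cell markers were near the floor, with 3 of 20 kept, 3 at 0 in all 6 libraries and a sum of 16.1, 20.6 and 10.7 CPM at day 30 and 33.7, 55.9 and 23.7 CPM at day 7. B cell markers had 5 of 12 kept and 5 at 0 in all 6 libraries, and nearly all their sum was the immunoglobulin heavy chain Ighm, at 276, 390.5 and 307 CPM at day 30 and 248, 158 and 260.0 CPM at day 7 (0.56 ± 0.22). The part of these cells in the lower and higher gene groups was not tested.

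**Figure D4:**
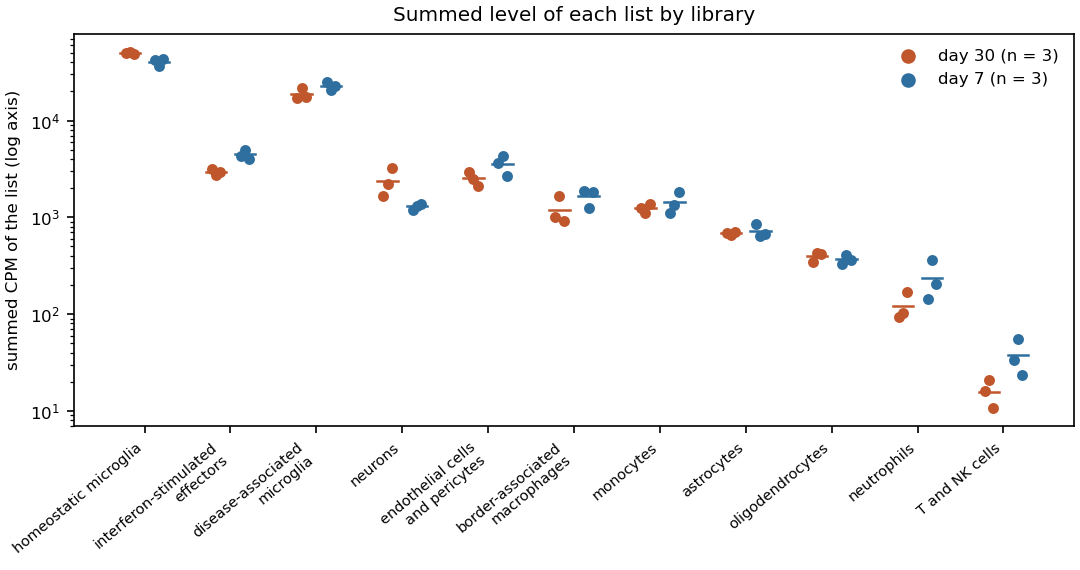
Summed CPM (log axis) of each list in every library, with day 30 (n = 3) left of day 7 (n = 3); points are libraries and bars are means. Homeostatic and neuron markers lie wholly higher at day 30, interferon effectors and T and NK cell markers wholly lower, and the other lists shown overlap.

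The cell cycle list as a whole was mixed. Ccnb2, Mki67 and Cenpa, given below, were picked by p from its lower members, and its higher members reached a log2 change of 1.44. Of 43 cell cycle genes, 41 were kept. Of these, 4 lay wholly below day 7 (9.76%, beside 5.97% of all genes kept) and 3 wholly above (7.32%, beside 7.01%). The list sums overlapped, at 1597, 1862 and 1308 CPM at day 30 and 1551, 1357 and 1669 CPM at day 7. Of the 41 kept, 16 were above 0 and 25 below, with a median of -0.45. That median was 0.01 when the filter was set at 10 CPM, and -0.61 to -0.14 with 1 library left out. Cyclin B2 (Ccnb2), which drives entry into mitosis, was at 0, 2.42 and 0.0876 CPM at day 30, against 14.9, 15.4 and 17.3 CPM at day 7 (-3.44 ± 0.87). The proliferation marker Mki67 was at 2.24, 7.62 and 0.350 CPM at day 30 and 14.6, 10.1 and 16.9 CPM at day 7 (-2.12 ± 0.90). The centromere histone Cenpa was at 5.17, 11.4 and 3.68 CPM at day 30 and 27.5, 15.7 and 30.7 CPM at day 7 (-1.80 ± 0.79). All 3 were wholly lower at day 30, at levels where SEs are large. Topoisomerase Top2a overlapped (-0.73 ± 0.63), as did the nuclear lamina gene Lmnb1 (0.16 ± 0.32).

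Signalling genes of NF-kB leaned higher, with 13 of 16 above 0 and 3 below, but the list sums overlapped. These were 12029, 11639 and 12967 CPM at day 30 and 10095, 11463 and 12347 CPM at day 7. The list median was 0.20, or 0.12 without day 30 replicate 4. Of the 16, 2 lay wholly above day 7 (12.5%, beside 7.01%), and these 2 are given next. The subunit Rela was at 369, 357 and 314 CPM at day 30 and 131, 197 and 271 CPM at day 7 (0.85 ± 0.24). The inducible regulator Nfkbiz was at 1548, 2094 and 1607 CPM at day 30 and 1176, 1035 and 1346 CPM at day 7 (0.56 ± 0.19), and both genes were wholly higher. Immediate early genes, which tissue dissociation also induces, had 20 of 31 above 0 and 11 below. Of the 31, 8 lay wholly above (25.8%, beside 7.01%) and 2 wholly below (6.45%, beside 5.97%). Their median was 0.22, or 0.08 without day 7 replicate 3. Their sums overlapped, with 53810.1, 48651 and 54867 CPM at day 30 and 42554, 43384 and 49688 CPM at day 7. Csrnp1, a nuclear protein of this class, was at 567, 882 and 577 CPM at day 30 and 368, 319.7 and 511 CPM at day 7 (0.75 ± 0.23). The transcription factor Egr2 was at 146, 173 and 142 CPM at day 30 and 76.9, 97.9 and 124 CPM at day 7 (0.64 ± 0.25). Csrnp1 and Egr2 were wholly higher at day 30. Nfkbiz belongs to both lists, and the part of dissociation in the NF-kB values was not tested. Heat shock genes had 14 of 17 above 0 and a median of 0.20, with 0 wholly above, and the median was 0.02 to 0.40 with 1 library left out.

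Inflammatory genes that define an activated macrophage showed no common direction. Cytokines and chemokines had 15 of 27 above 0 and a median of 0.15, MHC class II and costimulation 9 of 16 and 0.03, and complement with its receptors 9 of 16 and 0.03. These 3 medians changed sign in 3 or 4 of 25 alternative settings, among them library totals without Gm42418 for the last 2. Of the complement genes, C1qa was at 4119, 3088 and 3867 CPM at day 30 and 4285, 4285 and 4157 CPM at day 7 (-0.21 ± 0.21), wholly lower by a small amount, while C1qc overlapped (0.16 ± 0.23). Alternative activation and repair genes leaned lower, with 5 of 20 above 0, 15 below and 6 wholly below (30.0%, beside 5.97%). Their median was -0.53, or -0.26 without day 7 replicate 4. Their sums overlapped, at 2471, 3136 and 2674 CPM at day 30 and 3286, 2609 and 3188 CPM at day 7. The list shares members with others described above. Of its wholly lower genes, Igf1 is also disease-associated, Fn1 a monocyte marker and Stab1 a marker of border-associated macrophages. Plau, the urokinase protease that breaks down matrix, was at 31.3, 32.6 and 30.7 CPM at day 30 and 49.9, 43.7 and 67.5 CPM at day 7 (-0.73 ± 0.36).

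Genes of protein synthesis were slightly lower, and those of energy metabolism leaned lower with medians nearer to that of all genes kept. Cytoplasmic ribosomal proteins had 59 of 80 below 0, 13 wholly below (16.25%, beside 5.97%) and 0 wholly above, with a median of -0.25. They summed to 10217, 9946 and 10494 CPM at day 30 and 11464, 13985 and 11929.5 CPM at day 7. Rpl32, of the large subunit, was at 257, 189.7 and 261 CPM at day 30 and 329, 457 and 335 CPM at day 7 (-0.66 ± 0.21). Many ribosomal protein genes have processed copies, so their reads may be shared. Nuclear-encoded genes of oxidative phosphorylation had 45 of 68 below 0, 7 wholly below (10.3%, beside 5.97%) and 0 wholly above. Their sums overlapped, at 5346, 6297 and 4931 CPM at day 30 and 5903, 6999 and 5578 CPM at day 7. Their median was -0.13, which was -0.26 to -0.01 with 1 library left out. Glycolysis and hypoxia genes had 16 of 25 below 0, 3 wholly below (12%, beside 5.97%) and 0 wholly above. Their sums did not overlap, at 2349, 2573 and 2425 CPM at day 30 and 3096, 2722 and 2712 CPM at day 7. Slc2a1, given below, is on this list. The list had the same median of -0.13, which was -0.22 without day 7 replicate 2 and -0.27 with DESeq2 on recovered reads. Cox4i1, a subunit of cytochrome c oxidase, was at 117, 78.0 and 124 CPM at day 30 and 174, 187 and 147 CPM at day 7 (-0.69 ± 0.25). The glucose transporter Slc2a1, abundant in brain endothelium, was at 350.0, 384 and 348 CPM at day 30 and 730.0, 583 and 418 CPM at day 7 (-0.64 ± 0.24). Cox4i1 and Slc2a1 were wholly lower. The endothelial markers given above were also lower, and their part in the Slc2a1 values was not tested.

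**Figure D5:**
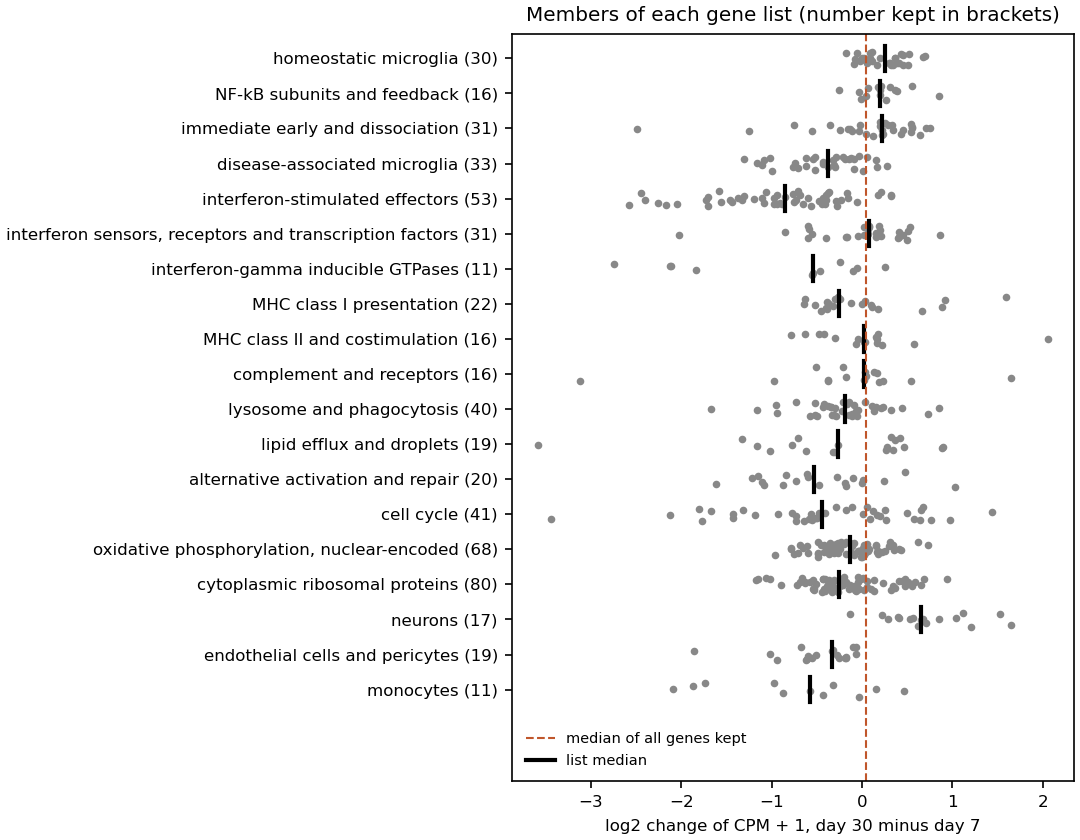
Log2 change of CPM + 1 (day 30 minus day 7) of each member kept, for 19 gene lists with the number kept in brackets; black bars are list medians and the dashed line is the median of all genes kept, 0.04. The interferon effectors have the median farthest below the line of the lists shown, at -0.85, and the neuron markers the median farthest above it, at 0.66.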

How the data were processed

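RNA of sorted CD45.2 microglia was measured as QuantSeq 3' libraries, which give about 1 read site per transcript near its end. Per the submitters' processing notes, the authors' pipeline was bcl2fastq, STAR and HTSeq on mm10; versions, annotation release and strandedness are not stated in the sources used here. The deposited table holds CPM, each column summing to 1000000. The smallest step of a column is 1 read, and with it 100.0% of values came out whole (tolerance 1e-06), which gave the depths. Floors of 3 reads cover counting error only. Values after ± are SEs from the limma fit and take in the spread between libraries. No sequencing or sorting batch is named in the labels.

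Genes reaching 1 CPM in 3 or more of the 6 day 30 and day 7 libraries were analysed as log2(CPM + 1). The 9 libraries were fitted by limma 3.58.1 in R 4.3.3 (lmFit, then eBayes with the spread following the mean), 1 mean for each day, with 6 residual and 23.2 prior degrees of freedom, two-sided, with Benjamini-Hochberg adjustment over 13977 genes and a threshold of 0.05. No scaling alternative moved the median of all genes by 0.1 or more. edgeR 4.0.16 and DESeq2 1.42.0 were run on the recovered reads as alternatives. The code was also run on simulated reads with the same set spread for every gene, which does not show its power at the spread seen here. The other alternatives were pseudocounts, filters, scalings, spread models, the replicate number as a block and each library left out. The totals without Gm42418 were added after seeing the data.

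The rule for naming genes took the 8 genes with the smallest p and separate libraries in each direction, up to 4 members of each list by p in its main direction, its 2 members with the highest mean, and a fixed set of well-known microglial genes. The comparison, the gene lists and this rule were chosen with earlier results of these data known. Lists are described by counts and medians, with no set test. Of their symbols, Iigp2, Lrrc33 and Ahsp were not matched. Gene positions are from GENCODE M21 on mm10, and promoters are from RefSeq on GRCm38.p6.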

Additional observations from a re-analysis of the deposited data

How the results depend on the processing

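With limma over the 9 libraries 0 genes were higher and 0 lower. A pseudocount of 5 CPM called 1 higher and 3 lower, the day 30 and day 7 libraries alone 3 higher and 9 lower, quantile normalization 0 higher and 1 lower, and DESeq2 on recovered reads 17 higher and 10 lower. Leaving out each library gave 0 to 1 higher and 0 to 1 lower. The other pseudocount, filters, scalings and spread models, and edgeR, called 0 in both directions. With the replicate number as a block, 1 gene was higher (Naip2) and 3 lower (Slfn5, Lgals3bp and Lcn2). Same-numbered day 30 and day 7 libraries had correlations of their deviations of 0.0012, -0.040 and 0.018, and the numbers were not taken to pair mice.

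The median of the interferon effectors stayed between -0.96 and -0.59 over all alternatives, and the medians of the homeostatic, disease-associated, lysosomal, neuron and endothelial lists kept their sign. With each library left out in turn, 6 of the genes named took the other sign in at least 1 setting. The ranges were -0.055 to 0.29 for Ctss, -0.075 to 0.31 for C1qc, -0.21 to 0.0032 for H2-K1, -0.011 to 0.37 for Lmnb1, -0.27 to 0.089 for Cst7 and -0.15 to 0.076 for Tyrobp. All 6 overlapped between the times. The median standard error was largest, at 0.88, for genes with means of 1 to 10 CPM, and the part of depth in it was not tested. A count of 0 allows a level of up to 0.231 to 0.416 CPM, depending on the library.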

Other observations

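Genes of the unfolded protein response, oxidative stress and TGF-beta signalling were divided between higher and lower values at day 30. Unfolded protein response genes had 12 of 23 above 0 and a median log2 change of 0.03, and among them the stress transcription factor Ddit3 was at 205, 149 and 269.7 CPM at day 30 and 131, 127 and 103 CPM at day 7 (0.75 ± 0.25 SE), wholly higher. The median of this list changed sign in 4 of 25 alternative settings. Oxidative stress and iron genes had 12 of 30 above 0 and a median of -0.07, which changed sign in 2 of 25 settings. TGF-beta signalling genes, the pathway that maintains microglial identity, had 10 of 20 above 0 and a median of 0.05, which changed sign in 5 of 25 settings. Its signal transducer Smad3 was at 99.1, 119 and 141 CPM at day 30 and 92.7, 39.8 and 72.8 CPM at day 7 (0.86 ± 0.29), also wholly higher. The 9 mitochondrially encoded genes kept of 13 had 4 above 0 and 5 below, with a median of -0.0003 and 0 wholly above or below. They summed to 23227, 20146 and 20838 CPM at day 30 and 22775, 22742 and 19937 CPM at day 7.

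Red cell transcripts had 7 of 10 kept and 6 of these above 0, with a median of 0.61, or 0.37 without day 7 replicate 2. The day 30 libraries lay wholly above day 7 for 4 of the 7 (57.1%, beside 7.01% of all genes kept) and wholly below for 0. The beta-globin gene Hbb-bt was at 112, 68.6 and 66.8 CPM at day 30 and 14.3, 49.6 and 33.2 CPM at day 7 (1.44 ± 0.40), wholly higher, but the sum of the list overlapped, at 524, 424 and 529 CPM at day 30 and 281, 540.3 and 359 CPM at day 7. Globin genes are near-identical copies and their split is uncertain. Dendritic cell markers, which include Bst2 and Siglech, had 5 of 13 kept, with 3 above 0 and 2 below, and summed to 668, 608 and 683 CPM at day 30 and 705, 795 and 618 CPM at day 7.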
